A study of Mus musculus with 24 samples.

Results

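The first day of embryoid body (EB) growth was followed in mouse embryonic stem cells in which Eed had been deleted and wild-type EED put back. The members are all genes of the deposited count table in 4 of the 24 libraries, the 2 labelled as EB day 1 of the rescued line and the 2 labelled as its 3i state. The line is called KO+WT here. Its tamoxifen field is positive, as is that of the plain knockout (KO) and of the knockout rescued with the N-KR form (KO+N-KR), and the protocol gives 800 nM 4-hydroxytamoxifen as the agent that deletes Eed. The f/f line, the conditional line kept without tamoxifen, has neither the deletion nor the drug. All lines are C57BL/6 cells grown with serum and LIF on layers of embryonic fibroblasts, and each was sampled in 3i, at EB day 1 and at EB day 2. The labels spell out neither 3i nor N-KR, and do not say whether the rescued line is a clone, what drives the added EED, or whether the libraries of a group came from separate cultures.

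EED is the subunit of Polycomb repressive complex 2 (PRC2) that binds trimethylated lysine 27 of histone H3 and stimulates the methyltransferase EZH2. PRC2 keeps developmental regulators silent in stem cells. When naive stem cells leave their self-renewal medium and aggregate, they pass into a formative state like the epiblast just after implantation: naive factors are switched off, general pluripotency factors persist, and epiblast genes and de novo DNA methyltransferases are switched on.

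The EB day 1 libraries held 13060022 and 8185907 counts and the 3i libraries 10463915 and 7553683. The libraries of a group differed by 1.10 to 1.18 times the variance of binomial sampling over the 12 groups, against 61.9 times between EB day 1 and 3i, so they were summed and counted as 1 sample. KO+WT therefore has 1 sample in each state, and edgeR's quasi-likelihood test takes its spread from how the other 3 lines depart from a common change, with 4 residual degrees of freedom. Each p-value assumes that KO+WT varies as those lines do. Levels below are CPM (a gene's counts per library, scaled to a common total with TMM factors), and changes are log2 fold changes of EB day 1 over 3i with their standard error (SE) and Benjamini-Hochberg adjusted p over all genes tested.

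Eed, the targeted gene, was at 375 and 380.5 CPM in the EB day 1 libraries and 389 and 393 CPM in the 3i libraries of KO+WT (log2 fold change -0.05 ± 0.11, adjusted p = 0.739). The levels of the summed samples at EB day 1 and 3i were 172 and 139.6 CPM in KO, 181 and 170.1 CPM in KO+N-KR and 219 and 176 CPM in f/f. Eed counts in KO+WT were thus above those of each other line in both states, while the labelled knockout still had Eed counts not far below those of f/f, and the labels do not say which part of the gene was deleted or whether the added copy can be counted. At EB day 2 the KO+WT sample had 187 CPM.

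Expression changed widely in KO+WT within the first day. Of 15558 genes tested, 2547 rose (16.4%) and 2607 fell (16.8%), of which 850 rose and 1449 fell at least 2-fold by the fitted change. Scaling by library totals alone gave 2037 rises and 3196 falls and moved the median change of all genes to -0.11, against -0.02 with TMM. By size alone, without a test, 555 of 11059 genes at 5 CPM or more were at least 2-fold higher at EB day 1 (5.02%) and 953 were at least 2-fold lower (8.62%). At 2-fold and beyond, the falls thus outnumbered the rises under both rules.

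**Figure D1:**
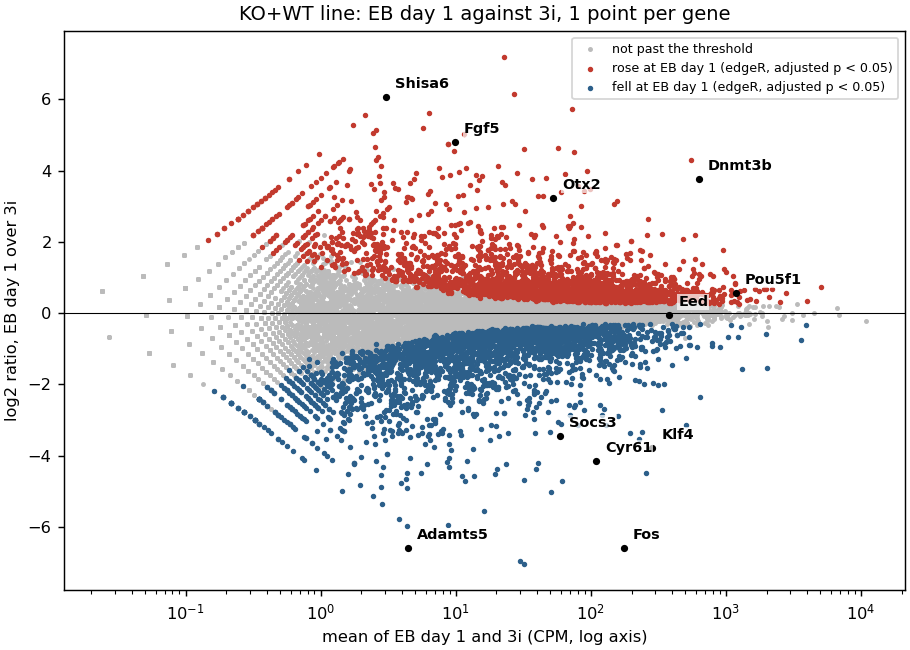
Log2 ratio of EB day 1 over 3i in KO+WT (vertical axis, prior count 2) against the mean level of both summed samples in CPM (horizontal log axis), 1 point per tested gene, coloured by edgeR call. Red points are the 2547 genes that rose, blue points the 2607 that fell, and Eed lies near 0.

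Genes of the formative and primed epiblast rose in 12 of 17 cases and none fell, with a median log2 fold change of 2.43, against -0.02 over all genes tested and a background of 16.4% rising. Fgf5, a growth factor of the post-implantation epiblast, was at 19.096 and 19.6 CPM in EB day 1 libraries and 0.654 and 0.520 CPM in 3i libraries (log2 fold change 5.00 ± 0.38, adjusted p = 5.52e-06). Pou3f1, a POU factor of the epiblast and neural plate, was at 149 and 141 CPM at EB day 1 and 5.61 and 7.15 CPM at 3i (log2 fold change 4.54 ± 0.34, adjusted p = 5.34e-06). Otx2, a homeodomain factor needed for the exit from the naive state, was at 95.7 and 95.7 CPM in EB day 1 libraries against 9.44 and 10.8 CPM in 3i libraries (log2 fold change 3.25 ± 0.38, adjusted p = 0.0001). In each of these genes every EB day 1 library lay above every 3i library, as was so for 38.3% of all genes tested. For a further 40.6% every EB day 1 library lay below every 3i library. Wnt8a rested on 1 count at 3i against 50 counts at EB day 1, a ratio of 44.9 with an exact 95% counting interval from 7.69 to 1808. Lef1, Zic2, Sox3, Sox4, Sall2 and Etv4 also rose, by log2 fold changes of 2.17 to 3.47. Foxd3 (log2 fold change 0.55 ± 0.38, adjusted p = 0.282), Cldn6, Cdh2, Tead2 and Nkx1-2 did not pass the test.

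Genes of de novo DNA methylation rose steeply. Dnmt3a, a de novo methyltransferase, was at 1071 and 1048 CPM in EB day 1 libraries and 51.5 and 56.7 CPM in 3i libraries (log2 fold change 4.30 ± 0.37, adjusted p = 1.52e-05). Its partner enzyme Dnmt3b was at 1184 and 1194 CPM at EB day 1 and 86.2 and 88.4 CPM at 3i (log2 fold change 3.77 ± 0.45, adjusted p = 0.000114), and the catalytically inactive cofactor Dnmt3l was at 998 and 966 CPM at EB day 1 and 211 and 217 CPM at 3i (log2 fold change 2.20 ± 0.13, adjusted p = 1.03e-06). All 3 were higher in both EB day 1 libraries. Mbd3, Tdg and Tet1 rose by less, with log2 fold changes of 0.75, 0.57 and 0.41. The maintenance methyltransferase Dnmt1 (log2 fold change 0.05 ± 0.10) and its cofactor Uhrf1 (log2 fold change 0.09 ± 0.10) did not pass, with adjusted p of 0.736 and 0.511. In all, 6 of 11 genes of this list rose and none fell, against 16.4% and 16.8% of all genes. The median was 0.41.

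Naive pluripotency genes fell in 12 of 15 cases, with a median log2 fold change of -1.49 and a background of 16.8% falling. Klf4, a Krüppel-like factor downstream of LIF, was at 38.8 and 39.7 CPM in EB day 1 libraries and 526 and 548 CPM in 3i libraries (log2 fold change -3.78 ± 0.14, adjusted p = 7.54e-08). Tbx3, a T-box factor of the naive network, was at 34.7 and 38.4 CPM at EB day 1 and 421 and 418 CPM at 3i (log2 fold change -3.54 ± 0.31, adjusted p = 1.52e-05). Tfcp2l1, another LIF-responsive naive factor, was at 107 and 101 CPM at EB day 1 and 915 and 924 CPM at 3i (log2 fold change -3.14 ± 0.35, adjusted p = 7.65e-05). All EB day 1 libraries lay below all 3i libraries for these 3 genes. Nanog, at 147 and 137 CPM at EB day 1 and 549 and 578 CPM at 3i, fell by 1.97 ± 0.20 on the log2 scale (adjusted p = 4.46e-05). Esrrb, an orphan nuclear receptor, fell by 1.24 ± 0.19 (adjusted p = 0.000583) and still stood at 305 and 298 CPM at EB day 1. Zfp42, also called Rex1, fell by 0.60 ± 0.18 (adjusted p = 0.0263). Nr0b1, an orphan nuclear receptor counted with the naive genes, rose instead: it was at 218 and 205 CPM at EB day 1 and 73.5 and 68.4 CPM at 3i (log2 fold change 1.57 ± 0.12, adjusted p = 5.43e-06). Tet2 and Fgf4 did not pass the test.

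Among core and general pluripotency genes, 8 of 12 rose and none fell, against 16.4% and 16.8% of all genes, with a median of 0.86. Pou5f1, which encodes OCT4, was at 1438 and 1422 CPM in EB day 1 libraries and 969 and 943 CPM in 3i libraries (log2 fold change 0.58 ± 0.10, adjusted p = 0.00113). Utf1, a chromatin factor of pluripotent cells, was at 566 and 544 CPM at EB day 1 and 129 and 105 CPM at 3i (log2 fold change 2.23 ± 0.14, adjusted p = 1.03e-06). Dppa4 and the let-7 inhibitors Lin28a and Lin28b rose by log2 fold changes of 1.13 to 1.45. Sox2, the partner of OCT4, did not pass (log2 fold change -0.34 ± 0.13, adjusted p = 0.0638), nor did Dppa5a, Tdgf1 and Sall4. The 8 rises of this list held in each fit on group sums. Scaling by library totals, no filter on low counts, or leaving out KO+N-KR added 3 falls. There were 2 falls with 3i and EB day 1 alone and 1 without the KO line. A fall also appeared without replicate 1 and without replicate 2.

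**Figure D2:**
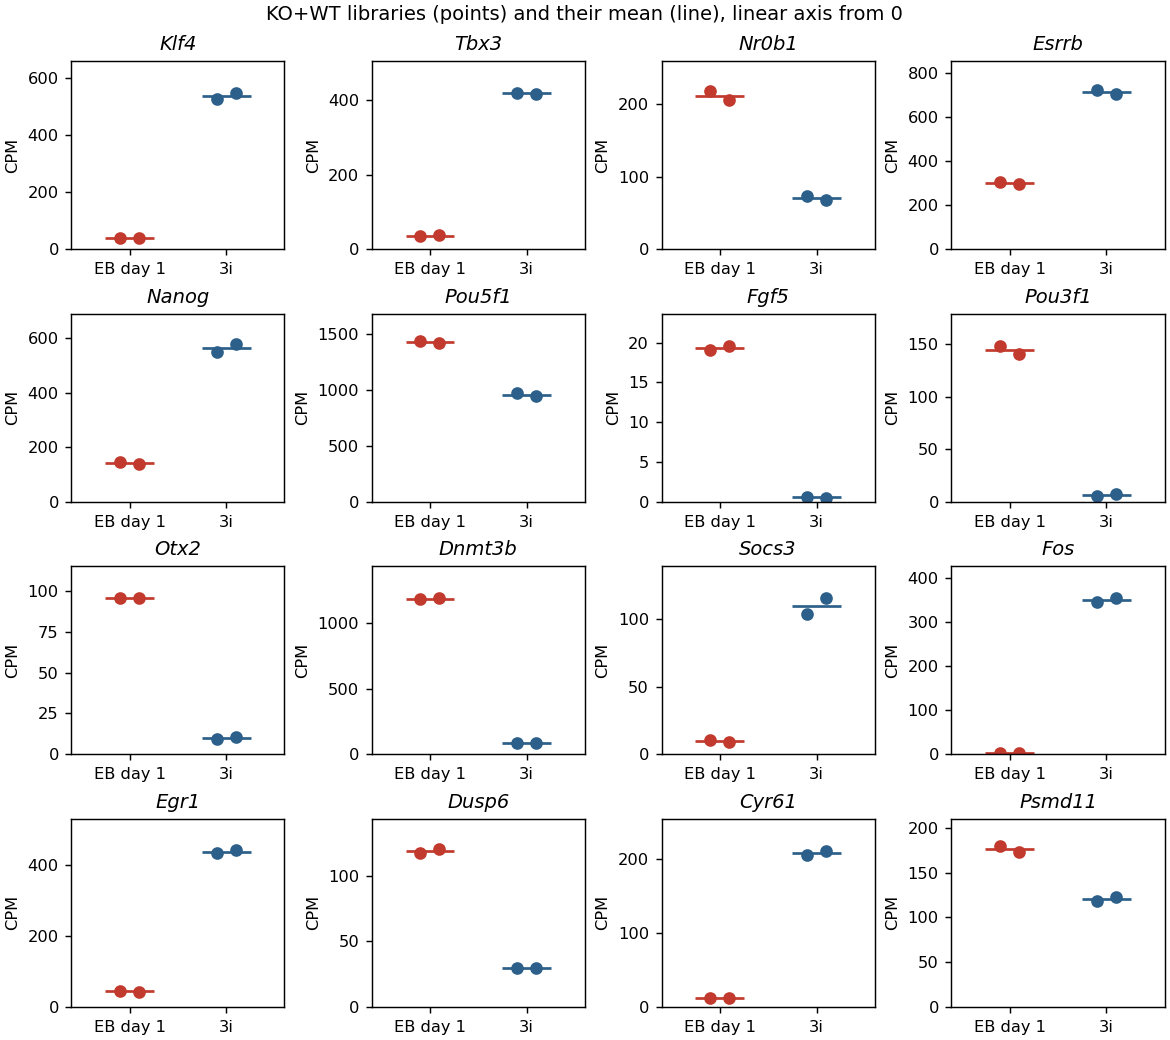
Level in CPM (linear vertical axes from 0) of 16 genes in the KO+WT libraries, EB day 1 in red on the left and 3i in blue on the right, with points for libraries and lines for their means. The libraries of a state lie close together, and the states do not overlap in any panel, as for 38.3% (higher) and 40.6% (lower) of all genes tested, for example 38.8 and 39.7 CPM at EB day 1 and 526 and 548 CPM at 3i for Klf4.

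LIF keeps naive cells in self-renewal through STAT3. Of 13 LIF-STAT3 genes, 11 fell and 1 rose, against 16.8% and 16.4% of all genes, with a median of -1.25. Socs3, the feedback inhibitor of the receptor, was at 10.8 and 8.91 CPM in EB day 1 libraries and 104 and 116 CPM in 3i libraries (log2 fold change -3.44 ± 0.35, adjusted p = 4.38e-05). Stat3 itself was at 47.7 and 46.5 CPM at EB day 1 and 120.4 and 118 CPM at 3i (log2 fold change -1.34 ± 0.14, adjusted p = 4.97e-05). Bcl3 and Junb fell by 2.12 and 2.17. The exception was Gbx2, a homeodomain gene, at 52.7 and 46.1 CPM at EB day 1 and 7.94 and 10.3 CPM at 3i (log2 fold change 2.49 ± 0.17, adjusted p = 3.05e-06). Klf4, Tfcp2l1 and Klf5 stand in this list and in the naive list. Osmr, which encodes a receptor of a LIF-related cytokine, was among the 12 largest falls over all genes, at 0.241 and 0.127 CPM at EB day 1 and 8.22 and 7.15 CPM at 3i (log2 fold change -5.27 ± 0.62, adjusted p = 0.000114).

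FGF signalling through ERK drives the exit from the naive state and induces its own inhibitors. Of 17 genes of this feedback list 10 rose and 2 fell, against 16.4% and 16.8% of all genes, with a median of 0.66. Spry4, a Sprouty inhibitor, was at 125 and 122 CPM in EB day 1 libraries and 17.9 and 19.116 CPM in 3i libraries (log2 fold change 2.75 ± 0.14, adjusted p = 5.15e-07). Dusp6, the ERK phosphatase, was at 117 and 120.4 CPM at EB day 1 and 29.8 and 29.8 CPM at 3i (log2 fold change 1.99 ± 0.27, adjusted p = 0.000276). Myc was at 72.8 and 64.2 CPM at EB day 1 and 4.67 and 5.33 CPM at 3i (log2 fold change 3.81 ± 0.29, adjusted p = 5.52e-06). These 3 genes were higher in each EB day 1 library than in each 3i library, as were the ETS factors Etv1 and Etv4, with log2 fold changes of 3.02 and 2.43. The 2 falls of the list were Fos and Egr1. Spry2 (log2 fold change -0.02 ± 0.14, adjusted p = 0.942), Spry1, Ier3, Fosl1 and Dusp5 did not pass.

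All 11 immediate early genes tested, of 12 listed, fell, against 16.8% of all genes, with a median log2 fold change of -3.32. Growth factors, serum or stress induce such genes within minutes. Fos, an AP-1 subunit, was at 3.45 and 3.69 CPM in EB day 1 libraries and 346 and 353 CPM in 3i libraries (log2 fold change -6.62 ± 0.59, adjusted p = 1.77e-05). Fosb, its close relative, was at 0.401 and 0.382 CPM at EB day 1 and 69.0 and 57.2 CPM at 3i (log2 fold change -7.33 ± 0.89, adjusted p = 0.000132). Egr1, a zinc finger factor, was at 44.0 and 43.4 CPM at EB day 1 and 433 and 441 CPM at 3i (log2 fold change -3.32 ± 0.49, adjusted p = 0.000455). For these genes the EB day 1 libraries lay wholly below the 3i libraries. The AP-1 partner Jun fell by 3.36 ± 0.36 (adjusted p = 5.75e-05), Atf3 fell by 3.44, and Egr2 fell by 4.82, with a change of -5.97 without replicate 1. Ier2 and Nr4a1 gave the smallest falls, 0.69 ± 0.18 and 0.46 ± 0.14, with adjusted p of 0.0113 and 0.028. The summed level of the list was 320 CPM at EB day 1 and 1483 CPM at 3i in KO+WT, against 370 and 1671 CPM in KO, 356 and 1437 CPM in KO+N-KR and 392 and 860 CPM in f/f. At 3i it was thus lower in f/f than in the 3 lines with the deletion, KO+WT among them.

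YAP-responsive genes are induced by the Hippo effector YAP with the DNA-binding factor TEAD, which reads the letters GGAATG, in cells that spread on a stiff surface. Of 10 listed genes 7 fell and 1 rose, against 16.8% and 16.4% of all genes, with a median of -1.58. Cyr61, a matricellular protein gene, was at 12.0 and 11.5 CPM in EB day 1 libraries and 206 and 212 CPM in 3i libraries (log2 fold change -4.15 ± 0.35, adjusted p = 1.23e-05). Ctgf, its relative, was at 24.8 and 29.3 CPM at EB day 1 and 228 and 237 CPM at 3i (log2 fold change -3.13 ± 0.44, adjusted p = 0.000319). Amotl2, which encodes an angiomotin that binds YAP, was at 57.4 and 54.9 CPM at EB day 1 and 219.6 and 219 CPM at 3i (log2 fold change -1.96 ± 0.28, adjusted p = 0.000336). EB day 1 lay below 3i in every library of these 3 genes. Ankrd1 had 2 counts at EB day 1 and 63 at 3i, a 35.1-fold lower level with an exact 95% counting interval from 9.32 to 296. Tead1, the DNA-binding partner, fell by 1.37 ± 0.17 (adjusted p = 0.000156). Jub, which encodes the LIM protein AJUBA, rose: it was at 183 and 183 CPM at EB day 1 and 102 and 106 CPM at 3i (log2 fold change 0.82 ± 0.15, adjusted p = 0.00202). Lats2 and Nuak2 did not pass.

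The upstream sequences of 4 of these genes are shown because they hold the TEAD letters while their genes moved in different directions. They are from RefSeq (GRCm38.p6, a later build than the mm9 of the counts), 250 bases ending at the base before the annotated start, with GGAATG or its complement CATTCC in capitals. Cyr61, listed in RefSeq as Ccn1, lies at chr3:145649986-145650235 on the minus strand and holds the letters once, beginning 103 bases before the start. Ankrd1, at chr19:36119845-36120094 on the minus strand, holds them beginning 210 and 123 bases before the start. Amotl2, at chr9:102717554-102717803 on the plus strand, holds them beginning 65 bases before the start. Jub, listed in RefSeq as Ajuba, lies at chr14:54577662-54577911 on the minus strand and holds them beginning 186 and 164 bases before the start.
Cyr61: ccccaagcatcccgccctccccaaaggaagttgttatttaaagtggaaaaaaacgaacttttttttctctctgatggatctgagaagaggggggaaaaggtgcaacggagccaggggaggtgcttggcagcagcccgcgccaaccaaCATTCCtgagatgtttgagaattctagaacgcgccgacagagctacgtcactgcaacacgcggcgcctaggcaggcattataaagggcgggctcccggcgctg
Ankrd1: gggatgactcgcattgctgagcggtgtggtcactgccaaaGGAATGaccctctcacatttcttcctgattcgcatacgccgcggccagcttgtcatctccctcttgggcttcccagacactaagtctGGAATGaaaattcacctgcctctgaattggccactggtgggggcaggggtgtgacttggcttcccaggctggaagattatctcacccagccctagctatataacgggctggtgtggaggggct
Amotl2: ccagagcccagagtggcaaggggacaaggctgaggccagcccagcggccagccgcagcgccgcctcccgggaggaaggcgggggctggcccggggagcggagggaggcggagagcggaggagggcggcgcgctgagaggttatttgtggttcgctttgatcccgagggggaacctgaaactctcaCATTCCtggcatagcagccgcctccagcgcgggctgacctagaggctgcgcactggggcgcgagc
Jub: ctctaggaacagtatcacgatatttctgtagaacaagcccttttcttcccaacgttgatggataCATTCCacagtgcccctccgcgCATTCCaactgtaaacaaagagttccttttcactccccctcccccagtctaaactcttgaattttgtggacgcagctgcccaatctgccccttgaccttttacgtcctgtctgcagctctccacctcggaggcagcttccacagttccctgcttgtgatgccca
Of the 10 listed genes 7 were matched to RefSeq, and 6 of the 7 hold GGAATG on either strand within 300 bases (250 before the start and 50 after it), against 16.6% of 27025 gene symbols with such windows. This was 1 of 10 motifs looked for in 7 lists after their values were seen, so the share is a description, and a match is not a bound site. CCAATC, the letters of the CCAAT box read with 1 more base, was in 13 of 15 matched cholesterol synthesis genes and 10 of 16 matched DNA replication genes, against 18.2% of symbols.

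Genes of embryonic fibroblasts, the feeder cells named in the growth protocol, fell in 13 of 19 tested cases and none rose. Over all genes 16.8% fell and 16.4% rose. The median of the list was -1.63. The summed level of the list was 1219 CPM at EB day 1 and 4021 CPM at 3i. Col1a1, a fibrillar collagen gene, was at 36.0 and 32.2 CPM in EB day 1 libraries and 358 and 350.2 CPM in 3i libraries (log2 fold change -3.36 ± 0.29, adjusted p = 1.44e-05). Acta2, smooth muscle actin, was at 0.481 and 0.255 CPM at EB day 1 and 59.9 and 59.7 CPM at 3i (log2 fold change -7.23 ± 0.41, adjusted p = 9.32e-07). Fn1, fibronectin, which stem cells also express, was at 1024 and 1048 CPM at EB day 1 and 3005 and 3012 CPM at 3i (log2 fold change -1.54 ± 0.19, adjusted p = 0.000126) and made up most of the sum, while the other 19 genes summed to 199.8 CPM at EB day 1 and 1029 CPM at 3i. The fibroblast-defining Lum was listed at 0 in a library of each state, and Dcn was at 0.883 and 1.02 CPM at EB day 1 and 0.280 and 0.780 CPM at 3i. In bulk RNA, fewer fibroblasts and less RNA of these genes per cell cannot be told apart, and the part of fibroblasts in the falls of immediate early, YAP-responsive and other genes was not tested.

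**Figure D3:**
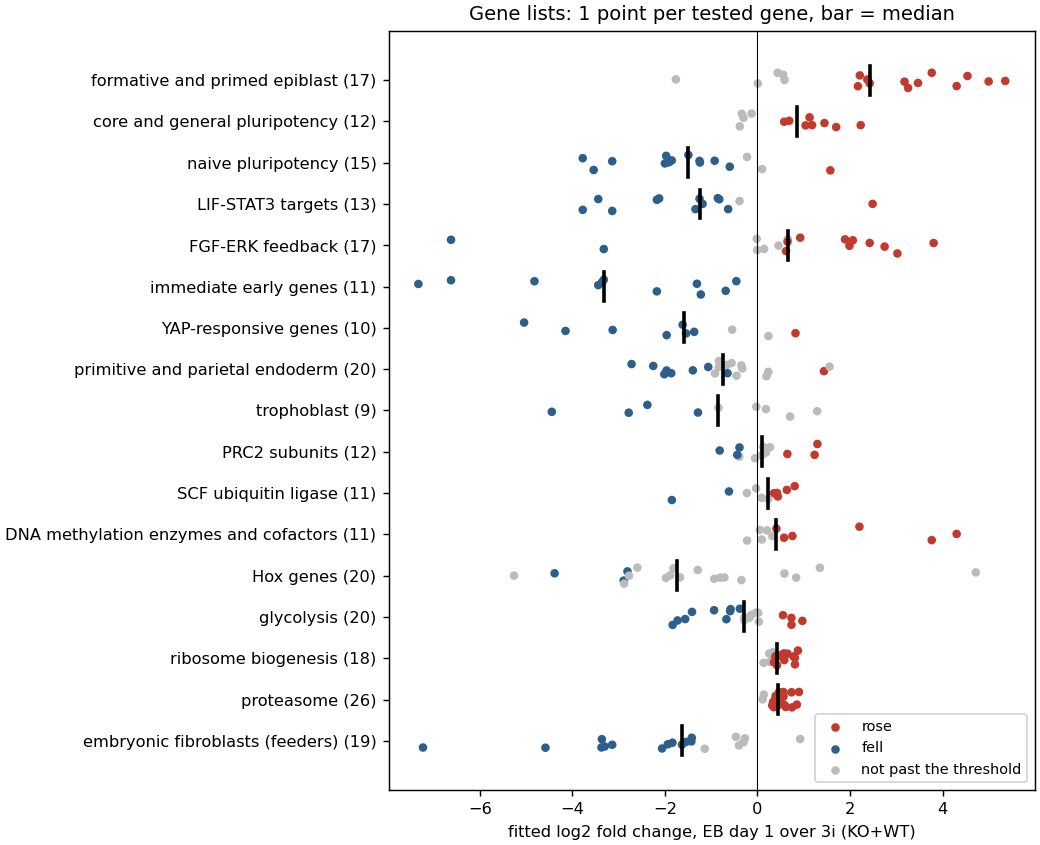
Fitted log2 fold change of EB day 1 over 3i in KO+WT (horizontal axis) for the tested genes of 17 lists, with the number tested after each name, 1 point per gene and a black bar at the median. Formative genes lie to the right with a median of 2.43, immediate early genes to the left with a median of -3.32, and proteasome genes in a narrow band around 0.43.

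The subunit genes of PRC2, the complex that EED belongs to, had 3 rises and 3 falls among 12, against 16.4% rising and 16.8% falling over all genes. Jarid2, which helps PRC2 to bind chromatin, was at 826 and 792 CPM in EB day 1 libraries and 346 and 344 CPM in 3i libraries (log2 fold change 1.23 ± 0.15, adjusted p = 0.000114). E130012A19Rik, named Epop in RefSeq, was at 239 and 233 CPM at EB day 1 and 154 and 146 CPM at 3i (log2 fold change 0.65 ± 0.12, adjusted p = 0.00225), and Phf19, a Polycomb-like subunit, was at 15.4 and 16.0 CPM at EB day 1 and 7.10 and 5.33 CPM at 3i (log2 fold change 1.30 ± 0.44, adjusted p = 0.0422). These 3 accessory genes were higher in each EB day 1 library. The core subunit gene Suz12 was at 355 and 348 CPM at EB day 1 and 453 and 471 CPM at 3i (log2 fold change -0.39 ± 0.12, adjusted p = 0.0305). Mtf2, a Polycomb-like gene, was at 355 and 354 CPM at EB day 1 and 471 and 491 CPM at 3i (log2 fold change -0.44 ± 0.10, adjusted p = 0.00618). Phf1 was at 6.58 and 5.47 CPM at EB day 1 and 10.8 and 10.8 CPM at 3i (log2 fold change -0.82 ± 0.24, adjusted p = 0.0196). The EB day 1 libraries were lower in all 3 of them. The catalytic subunit genes Ezh2 (244 and 233 CPM at EB day 1 and 217 and 236 CPM at 3i) and Ezh1 (37.1 and 35.9 CPM at EB day 1 and 48.0 and 48.0 CPM at 3i) did not pass the test. Aebp2 was at 149 and 156 CPM at EB day 1 and 137 and 129.8 CPM at 3i. The histone-binding Rbbp4 was at 619 and 623 CPM at EB day 1 and 508 and 523 CPM at 3i, and Rbbp7 at 346 and 335 CPM at EB day 1 and 312 and 315 CPM at 3i. None of the last 3 passed. Phf19 did not pass with scaling by library totals (adjusted p = 0.0662), without replicate 2 (0.101) or without the f/f line (0.0536). Phf1 did not pass by DESeq2 (adjusted p = 0.0571) or without replicate 2 (0.0585). Ezh1 passed as a fall with scaling by library totals (adjusted p = 0.0350) and without KO+N-KR (0.0470). Rbbp4 passed as a rise with DESeq2's size factors (adjusted p = 0.0479), without KO+N-KR (0.0397) and with 3i and EB day 1 alone (0.0144). With the 24 libraries taken as replicates Ezh1 and Rbbp4 also passed. In that fit so did Eed, Ezh2, Rbbp7 and Aebp2, with log2 fold changes of -0.06, 0.08, 0.12 and 0.18.

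Of 21 genes of Polycomb repressive complex 1, which ubiquitylates histone H2A, 5 rose and 2 fell, against 16.4% and 16.8% of all genes. The largest rise was that of Kdm2b, which recruits a variant complex to CpG islands, at 391 and 376 CPM in EB day 1 libraries and 154 and 150.2 CPM in 3i libraries (log2 fold change 1.34 ± 0.16, adjusted p = 0.000132). Bcor, L3mbtl2 and Phc1 rose by 1.07, 1.07 and 1.06 on the log2 scale. Skp1a, the SCF ubiquitin ligase adaptor that the series title links to PRC2 degradation, was at 386 and 399.6 CPM at EB day 1 and 397 and 401 CPM at 3i (log2 fold change -0.03 ± 0.10, adjusted p = 0.852). Of the 11 SCF genes 5 rose (3 without replicate 2 or with scaling by library totals) and 2 fell, among them the scaffold Cul1, with a rise of 0.64 ± 0.13 (adjusted p = 0.00373), and Fbxo15, an F-box gene of undifferentiated stem cells, at 56.1 and 61.2 CPM at EB day 1 and 205 and 214 CPM at 3i (log2 fold change -1.85 ± 0.20, adjusted p = 5.82e-05).

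Of 60 developmental genes known as Polycomb targets outside the Hox clusters, 43 were tested, and 10 of these rose and 4 fell, against backgrounds of 16.4% and 16.8%, with 2 falls by DESeq2, without the f/f line or without either replicate number. Wt1, a zinc finger factor of kidney and gonad, was among the 12 largest rises of all genes, at 45.7 and 46.0 CPM in EB day 1 libraries and 0.280 and 0.130 CPM in 3i libraries (log2 fold change 7.68 ± 0.45, adjusted p = 1.03e-06), with a change of 8.32 without replicate 1. Insm1, a neuroendocrine factor, was at 23.7 and 21.4 CPM at EB day 1 and 0.934 and 0.130 CPM at 3i (log2 fold change 5.24 ± 0.32, adjusted p = 1.03e-06). Its 3i libraries held 10 and 1 counts, and its change was 7.22 without replicate 1 and 4.63 without replicate 2. Pax6, an eye and forebrain factor, had 55 counts at EB day 1 and 1 at 3i, a ratio of 49.4 with an exact 95% counting interval from 8.50 to 1985. Of the falls, Gata2 was at 0.481 and 1.27 CPM at EB day 1 and 17.4 and 17.0 CPM at 3i (log2 fold change -4.44 ± 0.86, adjusted p = 0.00244), with changes of -3.73 without replicate 1 and -5.16 without replicate 2. The 20 Hox genes tested had 3 falls and no rise, with 2 falls of 7 tested without replicate 1 and 5 of 13 without replicate 2, and their summed level was 6.80 CPM at EB day 1 and 19.7 CPM at 3i over the 26 listed genes.

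Lists of other lineages are read against 16.4% rising and 16.8% falling over all genes. Of 10 primitive streak genes tested none rose and 2 fell, Eomes, at 8.34 and 9.04 CPM in EB day 1 libraries and 23.0 and 18.2 CPM in 3i libraries, and Gsc, with 3 counts at EB day 1 and 46 at 3i. Primitive and parietal endoderm genes fell in 8 of 20 cases (5 by DESeq2), led by the basement membrane gene Lama1, at 22.5 and 24.9 CPM at EB day 1 and 156 and 151 CPM at 3i (log2 fold change -2.72 ± 0.16, adjusted p = 1.03e-06), and 1, Cubn, rose. Of 9 trophoblast genes tested 4 fell and none rose, among them Tfap2c, at 12.2 and 12.7 CPM at EB day 1 and 85.9 and 84.3 CPM at 3i (log2 fold change -2.78 ± 0.31, adjusted p = 7.65e-05). Neuroectoderm genes were split, with 2 rises (Sox11 and Pax6) and 2 falls (Msi1 and Nes) among 9. The 6 genes of the 2-cell-like list that were tested did not pass, and of the 6 endothelium and blood genes Cd34 rose, though not without replicate 1 (adjusted p = 0.189), and Pecam1 fell.

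Lists of secreted signals are read against 16.4% rising and 16.8% falling over all genes. Of 10 Nodal-SMAD2 genes 3 rose and 1 fell, the inhibitory Smad7 (log2 fold change -0.64 ± 0.23, adjusted p = 0.0459), and scaling by library totals gave 3 falls. Smad7 did not pass without replicate 2 (log2 fold change -0.61) or with 3i and EB day 1 alone (-0.62). Lefty1, a Nodal inhibitor, was at 82.6 and 83.4 CPM in EB day 1 libraries and 40.0 and 36.9 CPM in 3i libraries (log2 fold change 1.10 ± 0.32, adjusted p = 0.0215), a call that DESeq2 did not make (adjusted p = 0.0808). BMP-SMAD1 targets had 4 rises and 4 falls of 12, with 2 rises by DESeq2 and 2 of 11 without replicate 1. Id1 was at 14.8 and 13.4 CPM at EB day 1 and 4.11 and 3.38 CPM at 3i (log2 fold change 1.90 ± 0.33, adjusted p = 0.00121), whereas Id4 was at 4.49 and 4.33 CPM at EB day 1 and 21.3 and 20.5 CPM at 3i (log2 fold change -2.25 ± 0.35, adjusted p = 0.000601). WNT targets had 5 rises and 3 falls of 16, with 1 fall without replicate 1 and 5 falls without the KO line, without KO+N-KR or with 3i and EB day 1 alone. Cdx1, a caudal factor, was at 0.883 and 1.02 CPM at EB day 1 and 17.3 and 16.3 CPM at 3i (log2 fold change -4.17 ± 0.51, adjusted p = 0.000135), and Lef1, a WNT effector, was at 48.1 and 46.1 CPM at EB day 1 and 5.61 and 4.68 CPM at 3i (log2 fold change 3.18 ± 0.19, adjusted p = 1.03e-06). Of 12 Notch pathway genes 3 rose, with the ligand Dll1 among them, and 4 fell, with the effector Hes1 at 14.2 and 14.3 CPM at EB day 1 and 61.9 and 63.8 CPM at 3i (log2 fold change -2.14 ± 0.31, adjusted p = 0.000397).

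Imprinted genes, which are expressed from the allele of a single parent, had 13 rises and 7 falls of 34, against 16.4% and 16.8% of all genes. Peg3 was at 457 and 463 CPM in EB day 1 libraries and 71.0 and 75.6 CPM in 3i libraries (log2 fold change 2.65 ± 0.15, adjusted p = 1.03e-06), and Mest was at 124 and 115 CPM at EB day 1 and 21.5 and 22.0 CPM at 3i (log2 fold change 2.47 ± 0.26, adjusted p = 5.43e-05). Plagl1 went the other way, at 4.09 and 4.20 CPM at EB day 1 and 80.6 and 72.0 CPM at 3i (log2 fold change -4.22 ± 0.37, adjusted p = 1.71e-05). Whether the counts use strand information is not stated, so overlapping imprinted transcripts cannot be taken as separated. Of 15 germline genes silenced by DNA methylation 2 rose, Mael with the larger change, and 2 fell, Dpep3 and Sycp3.

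Of 26 proteasome genes 24 rose and none fell, with a median of 0.43 and a background of 16.4% rising and 16.8% falling, and scaling by library totals left 18 rises. Psmc4, an ATPase subunit, was at 228 and 223 CPM in EB day 1 libraries and 121 and 122 CPM in 3i libraries (log2 fold change 0.90 ± 0.11, adjusted p = 0.000181). Psmd11, a lid subunit, was at 179.9 and 173 CPM at EB day 1 and 118 and 123 CPM at 3i (log2 fold change 0.56 ± 0.12, adjusted p = 0.00367). The protocol names the proteasome inhibitor MG132 without saying which samples received it. Ribosome biogenesis genes rose in 14 of 18 cases (median 0.41), or 10 with scaling by library totals, with Polr1b, an RNA polymerase I subunit, at 179 and 192 CPM at EB day 1 and 102 and 97.5 CPM at 3i (log2 fold change 0.88 ± 0.16, adjusted p = 0.00166). Ribosomal protein genes had 1 fall (Rpl22) and no rise among 29. DNA replication genes rose in 7 of 20 cases, or 5 with scaling by library totals or without replicate 1, among them Mcm2, Mcm5 and Mcm7 of the replicative helicase. Heat shock genes rose in 5 of 12 cases, with Hsph1 at 454 and 452 CPM at EB day 1 and 213 and 213 CPM at 3i (log2 fold change 1.08 ± 0.14, adjusted p = 0.000222).

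Glycolysis genes fell in 9 of 20 cases and rose in 4, against 16.8% falling and 16.4% rising over all genes. Hk1, a hexokinase, was at 52.1 and 50.7 CPM in EB day 1 libraries and 179.8 and 188 CPM in 3i libraries (log2 fold change -1.83 ± 0.19, adjusted p = 4.86e-05), and Slc2a3, a glucose transporter, was at 669 and 671 CPM at EB day 1 and 1976 and 1971 CPM at 3i (log2 fold change -1.56 ± 0.26, adjusted p = 0.000863). Hypoxia targets had 5 falls and no rise of 16 (8 falls and 1 rise without the KO line), with Vegfa at 20.5 and 19.5 CPM at EB day 1 and 121 and 115 CPM at 3i (log2 fold change -2.56 ± 0.54, adjusted p = 0.00405). Among amino acid and unfolded protein stress genes 7 of 18 fell (4 without the f/f line) and 4 rose. Asns, asparagine synthetase, was at 206 and 218 CPM at EB day 1 and 1083 and 1062 CPM at 3i (log2 fold change -2.35 ± 0.22, adjusted p = 2.41e-05), while the cationic amino acid transporter Slc7a3 was at 384 and 361 CPM at EB day 1 and 109.8 and 113 CPM at 3i (log2 fold change 1.75 ± 0.23, adjusted p = 0.000205). Cholesterol synthesis genes had 7 rises, or 4 with scaling by library totals and 3 without the f/f line, and 2 falls of 22. Of 24 nuclear oxidative phosphorylation genes 2 fell, or 5 with scaling by library totals, and none rose.

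The cell cycle, death and adhesion counts are to be read against 16.4% rising and 16.8% falling over all genes. Of 10 CDK inhibitor and D cyclin genes 2 rose and 1 fell: Cdkn1a, the p21 inhibitor, was at 48.1 and 49.6 CPM in EB day 1 libraries and 148 and 141 CPM in 3i libraries (log2 fold change -1.58 ± 0.17, adjusted p = 5.95e-05), and Cdkn1c, the p57 inhibitor, was at 26.8 and 24.1 CPM at EB day 1 and 8.50 and 8.84 CPM at 3i (log2 fold change 1.57 ± 0.36, adjusted p = 0.00644). Mitosis genes had 2 rises of 16, p53 targets 2 rises and 4 falls of 15, and apoptosis regulators 3 rises of 12. Of 18 adhesion and epithelial genes 4 rose and 2 fell, and Epcam, an epithelial adhesion gene, was at 344 and 351 CPM at EB day 1 and 171 and 178 CPM at 3i (log2 fold change 0.99 ± 0.12, adjusted p = 0.000158). The Xlr family had no call among 9, replication-dependent histones 2 falls among 11, and housekeeping genes 3 rises and 3 falls among 12. B2m, a housekeeping gene that is also part of antigen presentation, was at 7.46 and 8.53 CPM at EB day 1 and 34.5 and 31.7 CPM at 3i (log2 fold change -2.08 ± 0.18, adjusted p = 1.53e-05).

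The 12 largest rises over all genes at 5 CPM or more were Shisa6, Wt1, Rsph4a, Vrtn, Slc35d3, Enpp2, Bcl11a, Insm1, Fgf5, Glyatl3, Atcay and Foxi3. Shisa6, which encodes a membrane protein of synapses, had 126 counts at EB day 1 and 0 at 3i, so it was at least 37.7-fold higher, taking a floor of 3 counts in the summed 3i sample. Vrtn, a gene linked to vertebra number in pigs, was at 51.6 and 57.0 CPM in EB day 1 libraries and 0.561 and 0.780 CPM in 3i libraries (log2 fold change 6.35 ± 0.29, adjusted p = 3.09e-07). Enpp2, which encodes autotaxin, was at 146 and 142 CPM at EB day 1 and 2.52 and 2.73 CPM at 3i (log2 fold change 5.79 ± 0.34, adjusted p = 1.03e-06). Slc35d3, Rsph4a and Glyatl3 rested on 1 to 3 counts at 3i, with ratios of 76.9 (exact 95% counting interval 26.0 to 375), 93.4 (16.4 to 3723) and 32.0 (10.7 to 158).

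The 12 largest falls were Adamts5, Fosb, Ptx3, Acta2, Sdpr, Prelp, Fos, Trpm1, Prss23, Mobp, Wisp2 and Osmr. Adamts5, an aggrecan-cleaving protease of connective tissue, had 0 counts at EB day 1 and 164 at 3i and was at least 60.9-fold lower, with the floor of 3 counts in the summed EB day 1 sample. Trpm1, a cation channel of melanocytes and retina, was at 0.241 and 0.127 CPM in EB day 1 libraries and 16.2 and 19.5 CPM in 3i libraries (log2 fold change -6.44 ± 0.39, adjusted p = 1.03e-06), and its change was -7.11 without replicate 1. Ptx3, Sdpr, Prelp and Mobp had 1 or 2 counts at EB day 1, with 179-fold, 156-fold, 116-fold and 56.3-fold lower levels and exact 95% counting intervals of 31.7 to 7127, 27.5 to 6203, 20.3 to 4619 and 15.2 to 471. Adamts5, Acta2, Prelp, Wisp2 and Ptx3 are expressed by fibroblasts, whose listed genes other than Fn1 summed to 199.8 CPM at EB day 1 and 1029 CPM at 3i, with Lum and Dcn near 0 in both states. The part of fibroblasts in these falls was not tested.

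The same step was then compared with that of the other 3 lines, each against its own 3i sample. No gene passed the edgeR test of the difference: 0 of 15558 genes were higher and 0 lower (0% each). The lowest adjusted p was 1. The unadjusted p was under 0.05 for 398 genes, fewer than a share of 0.05 of those tested would be. DESeq2 also gave 0 in each direction. The spread in both tests holds any real difference in change among f/f, KO and KO+N-KR. The absence of calls therefore does not show equal changes. Simulated data had a single coefficient of variation for all genes, close to the fitted 8.63%, and the same state means in every line. Among genes above a low minimum level, the test found 5% of 1.5-fold, 78.5% of 2-fold and 98% of 4-fold simulated differences. There were 0, 8 and 17 false calls. In these simulated data, 1.5-fold differences were thus mostly not found. In the real fit the difference had an SE of 0.36 for Calcoco2, 0.38 for Fgf15, 0.70 for Fos and 2.01 for Shisa6. Calcoco2 and Fgf15 had differences of -1.15 and 1.24 on the log2 scale and did not pass. The recovered shares therefore do not carry over to the real fit. Over 11059 genes at 5 CPM or more, Pearson's r between the log2 ratios of KO+WT and the mean of the other lines was 0.964, a description across genes that share libraries and scaling. With each single line KO+WT gave 0.942 (f/f), 0.940 (KO) and 0.950 (KO+N-KR), about as high as the pairs among the other lines, at 0.928 to 0.947.

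**Figure D4:**
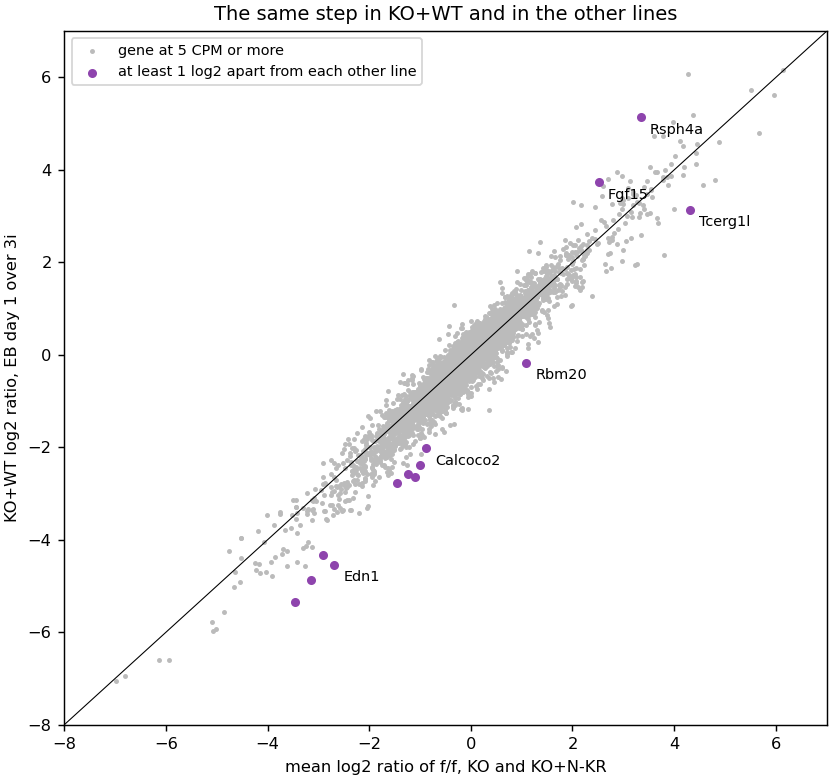
Log2 ratio of EB day 1 over 3i in KO+WT (vertical axis) against the mean ratio of f/f, KO and KO+N-KR (horizontal axis), 1 point per gene at 5 CPM or more in KO+WT, with the diagonal marking equal change. Most of the 11059 genes lie along the diagonal, and the 13 purple points lie at least 1 log2 unit from each of the other lines.

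By size alone, 2 of 11059 genes had a log2 ratio at least 1 above that of every other line and 11 at least 1 below. The rule was chosen after the values were seen. Its minimum of 5 CPM was asked of KO+WT alone, so genes could enter through their level in KO+WT. Edn1, for example, was at 5.46 CPM at 3i in KO+WT against 1.01 to 3.21 CPM in the other lines. The counts of 2 and 11 are therefore not read as a lean to 1 side. Fgf15, an FGF of the embryo and gut, was at 29.8 and 25.3 CPM in EB day 1 libraries and 1.68 and 2.47 CPM in 3i libraries of KO+WT, with a log2 ratio of 3.73 against 2.12 in f/f, 2.73 in KO and 2.72 in KO+N-KR. Rbm20, a splicing factor gene, was at 7.62 and 9.93 CPM at EB day 1 and 9.62 and 9.49 CPM at 3i, with a ratio of -0.18 against 1.07 in f/f, 1.19 in KO and 1.02 in KO+N-KR. At EB day 1 the summed sample of KO+WT had 8.40 CPM of Rbm20, against 9.42 CPM in f/f, 12.3 CPM in KO and 11.1 CPM in KO+N-KR. At 3i it had 9.52 CPM against 4.43, 5.32 and 5.41 CPM, so the lines also differed in their 3i level. Calcoco2, an autophagy receptor gene, was at 33.9 and 32.1 CPM at EB day 1 and 134 and 133 CPM at 3i, with a ratio of -2.02 against -0.87 in f/f, -0.82 in KO and -0.92 in KO+N-KR. The Calcoco2 levels at EB day 1 were near each other in all lines, at 32.7 CPM in KO+WT, 31.7 CPM in f/f, 37.5 CPM in KO and 39.7 CPM in KO+N-KR, and at 3i KO+WT had 133 CPM against 58.1 CPM in f/f, 66.5 CPM in KO and 75.5 CPM in KO+N-KR. The other 10 genes of the size rule were Rsph4a above, and Edn1, Cited4, Prelp, Syde1, Mobp, Filip1l, Sh2d4b, Tcerg1l and Dmgdh below. Lefty1 did not meet the size rule. Its ratio was 1.09 in KO+WT against -0.71 in f/f, -0.44 in KO and 0.16 in KO+N-KR. The fitted difference for Lefty1 was 1.43 ± 0.37 and did not pass the test. At EB day 1 Lefty1 was at 81.8 CPM in KO+WT, 43.2 CPM in f/f, 84.98 CPM in KO and 46.99 CPM in KO+N-KR. At 3i it was at 38.5, 70.6, 115.2 and 42.02 CPM in the same order. KO+WT and KO were thus near each other at EB day 1 and apart at 3i.

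The summed levels of lists were also set side by side, with no test. Naive genes at EB day 1 stood at 1717 CPM in KO+WT against 1849 CPM in f/f, 1901 CPM in KO and 1935 CPM in KO+N-KR. At 3i the naive genes were further apart, with 4505 CPM in KO+WT against 3437, 3862 and 4749 CPM in f/f, KO and KO+N-KR. YAP-responsive genes stood at 403 CPM at EB day 1 and 1073 CPM at 3i in KO+WT, against 408 and 1075 CPM in KO, 458 and 901 CPM in KO+N-KR and 376 and 560 CPM in f/f, so that KO+WT and KO were near each other and f/f was lower at 3i. Formative genes reached 3202 CPM at EB day 1 in KO+WT, against 2281 to 2617 CPM in the other lines, and 478 CPM at 3i, against 404 to 455 CPM. Dnmt3a and Dnmt3b are members of this list and made up 2220.0 CPM of the KO+WT sum at EB day 1, against 1471 to 1730.2 CPM in the other lines. The other 15 members summed to 982 CPM at EB day 1 in KO+WT, against 810 to 887 CPM in the other lines.

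**Figure D5:**
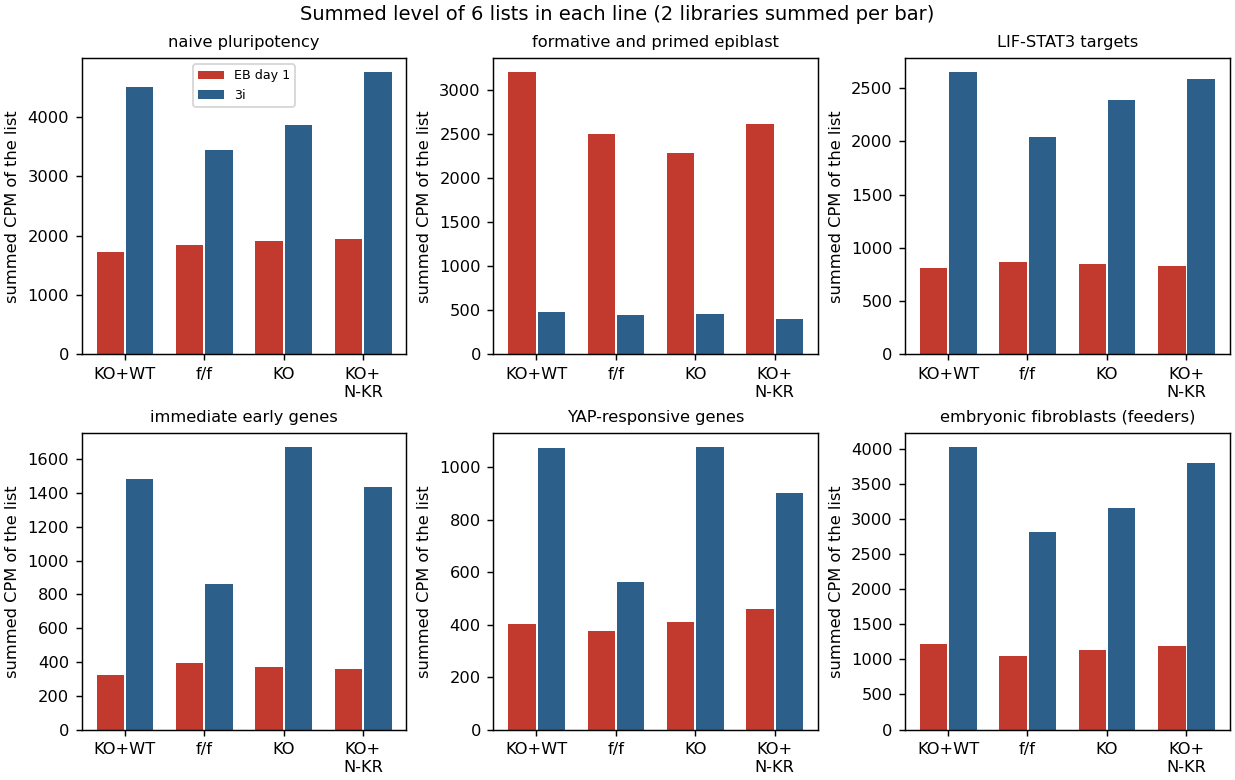
Summed CPM of the members of 6 lists (vertical axes from 0) in KO+WT, f/f, KO and KO+N-KR, with EB day 1 in red left of 3i in blue, each bar being the sum of a group's 2 libraries with no error bar. In KO+WT the feeder list is at 1219 CPM at EB day 1 and 4021 CPM at 3i, and the formative list at 3202 CPM at EB day 1 and 478 CPM at 3i.

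The levels of the summed KO+WT samples went on to EB day 2. Klf4 was at 532, 38.6 and 18.9 CPM, Fgf5 at 0.595, 19.0 and 42.9 CPM and Lefty1 at 38.5, 81.8 and 486 CPM at 3i, EB day 1 and EB day 2. Klf4 was lower at EB day 2 than at EB day 1, Fgf5 was higher at EB day 2 and Lefty1 was highest at EB day 2. Other genes turned back. Among them were Wt1 (0.216, 45.2 and 16.0 CPM in the same order), Myc (4.92, 68.5 and 18.4 CPM) and Tfap2c (84.8, 12.2 and 67.6 CPM). These are levels of single summed samples and no test of the later step was made.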

How the data were processed

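Poly(A) RNA was sequenced from 24 libraries in 12 groups of 2 (4 lines in 3 states), and the groups were taken from the sample titles. The authors deposited raw counts, 23284 gene symbols by 30 columns, of which the 24 that carry a sample's library name entered the work, and 6 did not. The submitters' processing notes name STAR 2.5.2b, DESeq2 and the build mm9. How reads were assigned to genes, on which strand and with which annotation, is not stated there. Genes that overlap, antisense partners and near-identical copies (Xlr, Zscan4) therefore cannot be taken as separated.

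The 2 libraries of each group were summed, giving 12 samples of 18017598 to 25160294 counts. These sums were tested with edgeR 4.0.16 in R 4.3.3 (TMM, filterByExpr, quasi-likelihood F-test, threshold 0.05), with terms for line and state and terms of its own for KO+WT at each EB day. The common coefficient of variation was 8.63%. Each SE is the size of the fold change over the root of its F value. Size calls need a 2-fold ratio and 5 CPM (prior count 2), with no p-value. The fit was tested on simulated data. Counting intervals and floors cover counting error only. The p-values measure only the spread between these samples, which may be technical. That spread also holds any real difference in change among f/f, KO and KO+N-KR.

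The comparison and the 44 gene lists were chosen with earlier results of these data known. Named genes are up to 4 members of each list with the largest change past the threshold (others only with the list's counts), the 12 largest rises and 12 largest falls at 5 CPM or more with an official symbol, and Eed, Skp1a and the PRC2 subunits; genes named for a size departure from the other lines were chosen after their values were seen. The values of a few genes that this rule names are not reported here. Alternatives were other scalings, DESeq2 1.42.0, no filter, leaving out each replicate or line, fewer states and the 24 libraries as replicates.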

Additional observations from a re-analysis of the deposited data

How the results depend on the processing

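The counts of genes that rose (2547) and fell (2607) in KO+WT stayed within 1.5 times under both other scalings, DESeq2 (2143 and 1978), no filter on low counts, leaving out each other line, and 3i and EB day 1 alone. They were 2074 to 2228 and 2026 to 2309 without a replicate number. With the 24 libraries taken as replicates they were 4618 and 4797, and the difference from the other lines gave 469 higher and 950 lower genes. With the replicate block added, the 24-library fit gave 4627 rises, 4811 falls, and 502 higher and 982 lower differences. These 24-library fits treat the 2 libraries of a group as replicates. The labels do not say whether they came from separate cultures, so the p-values may compare only these RNA samples. The replicate numbers did not pair the samples: the deviations of same-numbered KO+WT libraries at EB day 1 and 3i correlated at 0.0054 over 9509 genes, and those of 66 pairs of groups at -0.029 to 0.040. With no minimum level the size calls were 1498 higher and 2465 lower. Among the 171 genes of the naming rule no change called in KO+WT turned its sign under any of these fits. Other list members given with their list's counts, such as Otx2, Nanog and Pou5f1, were not in this check. Of 2051 gene values under 12 alternatives, 48 lost the call and 17 gained it. Counts of 3 or fewer calls in a list moved by up to 3 calls between the fits on group sums. The test of the difference was limited by the 12 samples, for differences below 2-fold and also for some beyond it.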
